A study of Mus musculus with 13 samples.

Results

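The genes examined here were 10 genes of the unfolded protein response and the integrated stress response: *Atf4*, *Ddit3*, *Atf3*, *Trib3*, *Ppp1r15a*, *Chac1*, *Asns*, *Xbp1*, *Hspa5* and *Herpud1*. They were taken as a list of names, drawn up with earlier results of these data known, and were followed through all 13 libraries of the series, among 49585 annotated genes. All 10 had reads in every library. Ovaries of P5 CD-1 mice had been kept in culture overnight, in a medium that held the antioxidant N-acetyl-L-cysteine, and were exposed to γ-rays from a caesium source before their oocytes were isolated. The 8 libraries of 0.5 Gy comprise pairs at 0, 1 and 4 h and single libraries at 2.5 h and at 6 h. The 5 libraries of 0.2 Gy cover the same 5 time points singly. The study describes the 0 h libraries as taken before irradiation. Replicate 1 of 0.5 Gy is labelled first generation, replicate 2 and the single libraries of 2.5 and 6 h second generation, and the 0.2 Gy libraries carry the third generation. Dose and the third generation therefore cannot be told apart, and the labels do not say what a generation was. Ovaries of each time point were pooled, so the p-values measure the spread between these libraries, part of which may be technical.

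Misfolded proteins in the endoplasmic reticulum (ER) are sensed by IRE1, ATF6 and PERK. IRE1 splices the *Xbp1* mRNA, and the encoded factor, together with ATF6, raises ER chaperones such as *Hspa5* and degradation factors such as *Herpud1*. PERK and related kinases, which respond to double-stranded RNA, lack of amino acids and lack of haem, phosphorylate eIF2α, which lowers general translation but favours translation of *Atf4*. ATF4 raises *Ddit3*, *Atf3*, *Trib3*, *Chac1*, *Asns* and *Ppp1r15a*, and PPP1R15A closes the loop by dephosphorylating eIF2α. Since ATF4 is controlled mainly in translation and XBP1 by splicing, mRNA levels report on the output of these pathways more than on their sensors. In the oocyte, the ER is also the site where the zona pellucida proteins and secreted growth factors are made.

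The promoters of 5 of the genes are printed because they hold matches to elements known from both branches, or, for *Xbp1*, because it followed *Hspa5* in its level without holding one of them. Each is the RefSeq window of GRCm38.p6 from 250 bases before to 50 bases after the start of the gene, read 5′ to 3′ on the strand of the gene. They lie at chr2:34771840-34772139 for *Hspa5*, chr8:94386179-94386478 for *Herpud1*, chr11:5520391-5520690 for *Xbp1* and chr2:119350992-119351291 for *Chac1*, all on the plus strand, and at chr6:7693160-7693459 for *Asns* on the minus strand. Capitals mark matches to the elements described after them.
Hspa5: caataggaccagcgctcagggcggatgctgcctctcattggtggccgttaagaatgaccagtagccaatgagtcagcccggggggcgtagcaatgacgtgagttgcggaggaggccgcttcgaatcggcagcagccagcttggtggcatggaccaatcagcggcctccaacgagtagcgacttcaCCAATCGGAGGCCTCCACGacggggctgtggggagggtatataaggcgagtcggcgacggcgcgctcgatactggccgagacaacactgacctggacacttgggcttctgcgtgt
Herpud1: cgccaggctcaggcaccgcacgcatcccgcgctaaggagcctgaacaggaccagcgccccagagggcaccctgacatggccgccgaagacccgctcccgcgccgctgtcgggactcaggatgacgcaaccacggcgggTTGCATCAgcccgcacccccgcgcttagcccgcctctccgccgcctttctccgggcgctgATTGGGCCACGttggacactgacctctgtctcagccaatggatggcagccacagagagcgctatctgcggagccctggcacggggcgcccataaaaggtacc
Xbp1: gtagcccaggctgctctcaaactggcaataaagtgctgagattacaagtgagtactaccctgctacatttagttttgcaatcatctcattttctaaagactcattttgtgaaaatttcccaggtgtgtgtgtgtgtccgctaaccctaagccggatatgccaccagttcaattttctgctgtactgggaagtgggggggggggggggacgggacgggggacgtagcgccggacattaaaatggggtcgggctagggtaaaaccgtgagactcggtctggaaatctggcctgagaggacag
Chac1: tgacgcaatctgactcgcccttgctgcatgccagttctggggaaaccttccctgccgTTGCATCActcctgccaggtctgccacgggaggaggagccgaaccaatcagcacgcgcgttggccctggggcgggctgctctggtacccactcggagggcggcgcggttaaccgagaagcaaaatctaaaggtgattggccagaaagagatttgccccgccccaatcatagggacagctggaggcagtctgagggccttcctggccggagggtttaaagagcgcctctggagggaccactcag
Asns: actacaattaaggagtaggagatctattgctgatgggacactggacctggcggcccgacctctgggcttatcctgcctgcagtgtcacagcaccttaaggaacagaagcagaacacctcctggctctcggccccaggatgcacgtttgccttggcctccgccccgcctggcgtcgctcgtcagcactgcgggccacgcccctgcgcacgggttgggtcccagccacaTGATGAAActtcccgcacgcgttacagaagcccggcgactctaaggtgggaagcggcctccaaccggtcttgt

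The ER stress element, searched as CCAAT and CCACG with 9 bases between them, was found in 0.119% of the 32851 promoter windows and in 1 of the 10 genes, *Hspa5*, beginning 65 bases before the start. Its second form, ATTGG and CCACG with 1 base between them, was found in 0.0365% of all windows and in *Herpud1*, 52 bases before the start. The ATF4 response element, TGATGNAA, stood in 3.97% of all windows. It was matched in 5 of the 10 genes, which were *Asns*, *Atf3*, *Chac1*, *Herpud1* and *Trib3*, between 193 bases before and 14 bases after the start. The cyclic AMP response element TGACGTCA was matched in *Ppp1r15a*, 12 bases before the start, and in 1.79% of all windows. The XBP1 element TGACGTGG was matched in none of the 10, against 0.676% of all windows. Of the 82 windows of other pathway genes, 8 held the first form of the ER stress element, 1 the second and 10 the ATF4 element. The XBP1 element was in 1 and the cyclic AMP response element in 0. The elements were searched because they are known from these pathways, so the matches are a description and not a test. Both strands were searched, only exact matches were counted, and the first form, the second form and the ATF4 element did not overlap in these windows.

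The libraries held 15709549 to 30430104 estimated reads, the fewest in the second-generation 0 h library of 0.5 Gy and the most in the 0 h library of 0.2 Gy. Between 35827 and 38549 genes had reads at 0.5 Gy and 38388 to 39035 in the later libraries of 0.2 Gy, but 42402 and 42612 in its 0 and 1 h libraries.

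Per transcript length, *Hspa5* was by far the most abundant of the 10 genes, with a median of 242 TPM (length-corrected transcript abundance, range 93.2 to 330) over the 13 libraries. It encodes BiP, the main HSP70 chaperone of the ER, and its median TPM stood at the 98.3 percentile of the genes tested. A middle group followed, made of *Asns* with a median of 30.6 TPM, *Atf4* with 22.9 TPM, *Herpud1* with 21.5 TPM and *Xbp1* with 19.9 TPM. Their ranges over the libraries overlapped, so that their order is not fixed. *Ppp1r15a* had a median of 13.5 TPM and *Ddit3*, which encodes CHOP, of 8.50 TPM. The other 3 genes were low: the median was 0.37 TPM for *Chac1*, 0.36 TPM for *Atf3* and 0.24 TPM for *Trib3*. *Trib3* rested on 3 to 65 estimated reads per library, *Atf3* on 8 to 83 and *Chac1* on 13 to 77, whereas *Hspa5* never fell under 16007 reads. Below, levels are library-scaled read counts (CPM) after scaling between libraries, which can be compared between libraries for a gene but not between genes. Fewer cells of a type and less RNA per cell cannot be told apart in such bulk libraries.

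**Figure D1:**
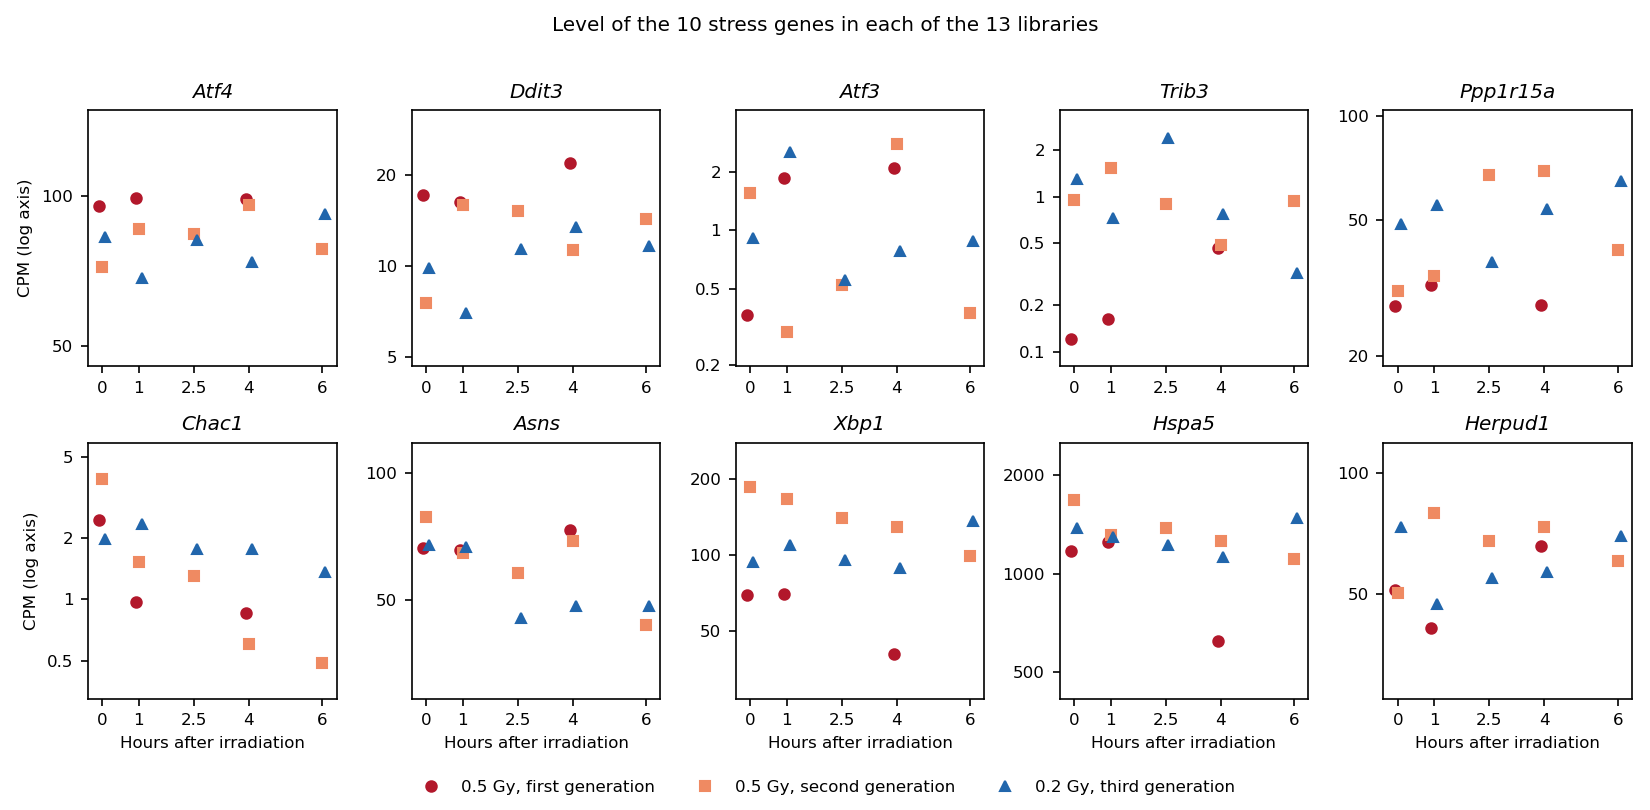
CPM of each of the 10 genes on a log axis against hours after irradiation, with 1 point per library and colour and shape for dose and generation. No gene separates the libraries of 4 and 6 h from those of 0 and 1 h over both doses, *Chac1* lies lowest at 6 h of 0.5 Gy with 0.49 CPM, and the first-generation points of *Xbp1* lie under all others.

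The question put first was whether any of the 10 genes rose or fell after irradiation. None was called in any of the planned comparisons, where a call needed an adjusted p under 0.05 (edgeR quasi-likelihood test, Benjamini-Hochberg) and an absolute log2 fold change over 1. Against 0 h of 0.5 Gy, the later time points each gave 0% of 28468 genes called. Unadjusted p fell under 0.05 at 1 h for 3.98% of genes, at 2.5 h for 5.59%, at 4 h for 5.82% and at 6 h for 5.94%, and DESeq2 called 30, 109, 139 and 147 genes, none of them among the 10. Pooling time points gave more: 0.128% of 22588 genes were called between the 2.5, 4 and 6 h and the 0 and 1 h libraries of 0.5 Gy. Between 4 and 6 h and 0 and 1 h, 0.0462% of 28162 genes were called at 0.2 Gy and 0.0983% of 28493 over both doses. The test of any change over the 5 time points called 0.00702%. Unadjusted p was under 0.05 in these 4 tests for 2 of the 10 genes against 9.06% of all, for none against 7.29%, for 2 against 7.08% and for 1 against 4.18%. The CPM of late and early libraries stood apart without overlap for 0 of the 10 genes at 0.5 Gy, against 5.26% of all genes, and for 0 over both doses, against 0.867%. Each side of the pooled comparisons mixes time points, so its libraries do not replicate 1 condition. As a check, *Mdm2*, the ubiquitin ligase that p53 family members induce, rose by a log2 fold change of 2.57 (SE 0.24, adjusted p 0.00117 by edgeR) over both doses. *Cdkn1a*, the cell cycle inhibitor p21, rose by 2.69 (SE 0.39, adjusted p 0.0192 by edgeR). Both check genes were also called between pooled time points of 0.5 Gy, with a median of 2.98. Neither passed in any single time point set against 0 h, although their median had reached 3.67 by 6 h. The 0.2 Gy comparison missed both too, with a median of 1.79. Where these known targets were missed, the lack of calls cannot show that the 10 genes stayed unchanged. The series holds no unirradiated library later than 0 h, so irradiation and further hours in culture cannot be told apart here.

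Among the transcription factors, *Atf4* was the steadiest of the 10 genes. At 0.5 Gy it stood at 95.5 and 71.9 CPM at 0 h, 99.1 and 85.9 CPM at 1 h, 83.9 CPM at 2.5 h, 98.7 and 95.9 CPM at 4 h and 78.3 CPM at 6 h. At 0.2 Gy it stood at 82.8, 68.3, 81.6, 73.6 and 91.97 CPM in order of time. The late and early libraries overlapped at both doses, and the fitted change over both doses was 0.07 on the log2 scale (SE 0.14). No more than 1.45-fold lay between the lowest and the highest library.

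*Ddit3*, the CHOP gene on chr10:127290774-127296288, whose product promotes apoptosis under lasting ER stress, did not separate early from late libraries either. It stood at 17.3 and 7.53 CPM at 0 h of 0.5 Gy, at 16.3 and 15.9 CPM at 1 h, at 15.2 CPM at 2.5 h, at 21.9 and 11.3 CPM at 4 h and at 14.3 CPM at 6 h. At 0.2 Gy the 0 and 1 h libraries had 9.85 and 6.997 CPM, and the 2.5, 4 and 6 h libraries had 11.4, 13.5 and 11.7 CPM. Within 0.2 Gy the later libraries thus all lay above the first 2, but the change of 0.58 (SE 0.42) did not pass the test (adjusted p 0.789 by edgeR). The share of all genes with such an order at 0.2 Gy was not counted. Over both doses the change was 0.28 (SE 0.26). A second annotated entry that overlaps *Ddit3* held 3.52% of the reads under that name and was left out. Of the 30-base sequences of its transcripts, 2.63% also occur in other genes, mostly in *Mars*.

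*Atf3*, another stress-induced transcription factor, varied 9.38-fold between libraries without order in time. At 0.5 Gy it had 0.36 and 1.56 CPM at 0 h, 1.86 and 0.30 CPM at 1 h, 0.52 CPM at 2.5 h, 2.10 and 2.79 CPM at 4 h and 0.38 CPM at 6 h. At 0.2 Gy the highest value, 2.54 CPM, was that of 1 h, and the other 4 libraries had 0.56 to 0.91 CPM. Both 4 h libraries of 0.5 Gy were above both 0 h libraries, yet 6 h was back among the lowest. The change at 4 h against 0 h was 1.40 (SE 0.97, adjusted p 0.879 by edgeR). It was 0.67 without the first-generation and 2.77 without the second-generation 0 h library.

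Of the ATF4 target genes, *Chac1*, which encodes an enzyme that degrades glutathione, had the largest fitted change of the 10 genes late against early, both at 0.5 Gy and over both doses, and its sign was negative. At 0.5 Gy it went from 2.46 and 3.94 CPM at 0 h to 0.97 and 1.52 CPM at 1 h and 1.31 CPM at 2.5 h, and on to 0.86 and 0.60 CPM at 4 h and 0.49 CPM at 6 h. At 0.2 Gy the values were 1.98, 2.35, 1.78, 1.78 and 1.36 CPM. The 3 libraries of 4 and 6 h of 0.5 Gy lay under all other libraries, while late and early libraries of both doses together overlapped. The share of all genes whose libraries of 4 and 6 h of 0.5 Gy lay apart in this way was not counted. The fitted change was -1.44 (SE 0.53, unadjusted p 0.0192, adjusted p 0.466 by edgeR) at 0.5 Gy and -1.26 (SE 0.40, unadjusted p 0.00814, adjusted p 0.543 by edgeR) over both doses. Against 0 h it was -2.09 (SE 0.65) at 4 h and -2.65 (SE 0.88) at 6 h. Without the 0 and 1 h libraries of 0.2 Gy, no gene of the 10 was called late against early either, and the value of *Chac1* was -1.59 (SE 0.45, adjusted p 0.387 by edgeR). None of these passed after adjustment, and 7.08% of all genes had an unadjusted p under 0.05 in the comparison over both doses.

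*Ppp1r15a*, the inducible subunit of the eIF2α phosphatase also known as GADD34, had a fitted change of the opposite sign at 0.5 Gy. It had 28.1 and 31.02 CPM at 0 h, 32.3 and 34.3 CPM at 1 h, 67.5 CPM at 2.5 h, 28.2 and 69.5 CPM at 4 h and 40.9 CPM at 6 h. The low 4 h library was that of the first generation, and the other 3 late libraries were above the 4 early ones. At 0.2 Gy, the 5 libraries ranged from 37.8 CPM at 2.5 h to 64.9 CPM at 6 h, and the 0 and 1 h libraries were already at 48.7 and 55.3 CPM. The change at 0.5 Gy was 0.71 (SE 0.26, unadjusted p 0.0185, adjusted p 0.463 by edgeR), and over both doses it was 0.42 (SE 0.26, adjusted p 0.801 by edgeR). The latter was 0.19 without the second-generation 4 h library of 0.5 Gy and 0.71 without the 0 and 1 h libraries of 0.2 Gy.

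*Asns*, asparagine synthetase, ran between 43.6 and 78.7 CPM. At 0.2 Gy it had 67.6 and 66.9 CPM at 0 and 1 h, and 45.1, 48.2 and 48.2 CPM later. At 0.5 Gy the 6 h library was the lowest with 43.6 CPM, and both 4 h libraries, with 73.2 and 68.8 CPM, were among the highest. The change over both doses was -0.33 (SE 0.14, unadjusted p 0.0358, adjusted p 0.677 by edgeR).

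*Trib3*, a pseudokinase that restrains ATF4 and AKT, had the widest range of all 10 genes, 3.66 on the scale of log2 CPM with a prior count of 2. At 0.5 Gy it had 0.12 and 0.95 CPM at 0 h, 0.16 and 1.52 CPM at 1 h, 0.90 CPM at 2.5 h, 0.47 and 0.49 CPM at 4 h and 0.94 CPM at 6 h. At 0.2 Gy it had 1.30, 0.73, 2.41, 0.78 and 0.32 CPM. Both pairs of replicates at 0 and 1 h lay far apart, with the first generation low, and the change over both doses was -0.37 (SE 0.64).

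On the ER side, *Hspa5* ranged from 624 CPM in the first-generation 4 h library of 0.5 Gy to 1671 CPM in the second-generation 0 h library. Its other libraries of 0.5 Gy had 1173 CPM at 0 h, 1249 and 1308 CPM at 1 h, 1376 CPM at 2.5 h, 1258 CPM at 4 h and 1105 CPM at 6 h. The 5 libraries of 0.2 Gy stayed between 1120 and 1478 CPM. The replicate of each extreme lay within the range of the other libraries, and the change over both doses was -0.25 (SE 0.18, adjusted p 0.832 by edgeR).

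*Xbp1* on chr11:5520659-5525893 split the replicates of each time point that had 2. At 0.5 Gy it stood at 69.3 and 185 CPM at 0 h, 70.0 and 166 CPM at 1 h, 140 CPM at 2.5 h, 40.4 and 129 CPM at 4 h and 99.1 CPM at 6 h. At 0.2 Gy it had 93.4, 109, 95.5, 89.0 and 136 CPM. The first value of each pair, from the first generation, was always the lower. Within the second generation the values were lower at each later time point, from 185 to 99.1 CPM, and within the first the 4 h library was the lowest of 3. At 0.5 Gy the late against early change was -0.27 (SE 0.40, adjusted p 0.882 by edgeR), and with the generation as a block it was -0.60 (SE 0.14, adjusted p 0.267 by edgeR). With the generations of the 1 and 4 h libraries exchanged in that block it was -0.23 (SE 0.43). Without a block it was 0.008 without the second-generation 0 h library and 0.0036 without the first-generation 4 h library. Over both doses the change was -0.18 (SE 0.34), or -0.33 (SE 0.18) with the block. None of these passed the test. Of its reads, 94.4% were assigned to 1 annotated transcript. The short intron that IRE1 removes was not assessed here.

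*Herpud1*, a membrane protein of ER-associated degradation, ranged from 41.0 to 79.4 CPM, both in 1 h libraries of 0.5 Gy, and from 47.2 to 73.6 CPM at 0.2 Gy. Its change over both doses was 0.19 (SE 0.19).

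**Figure D2:**
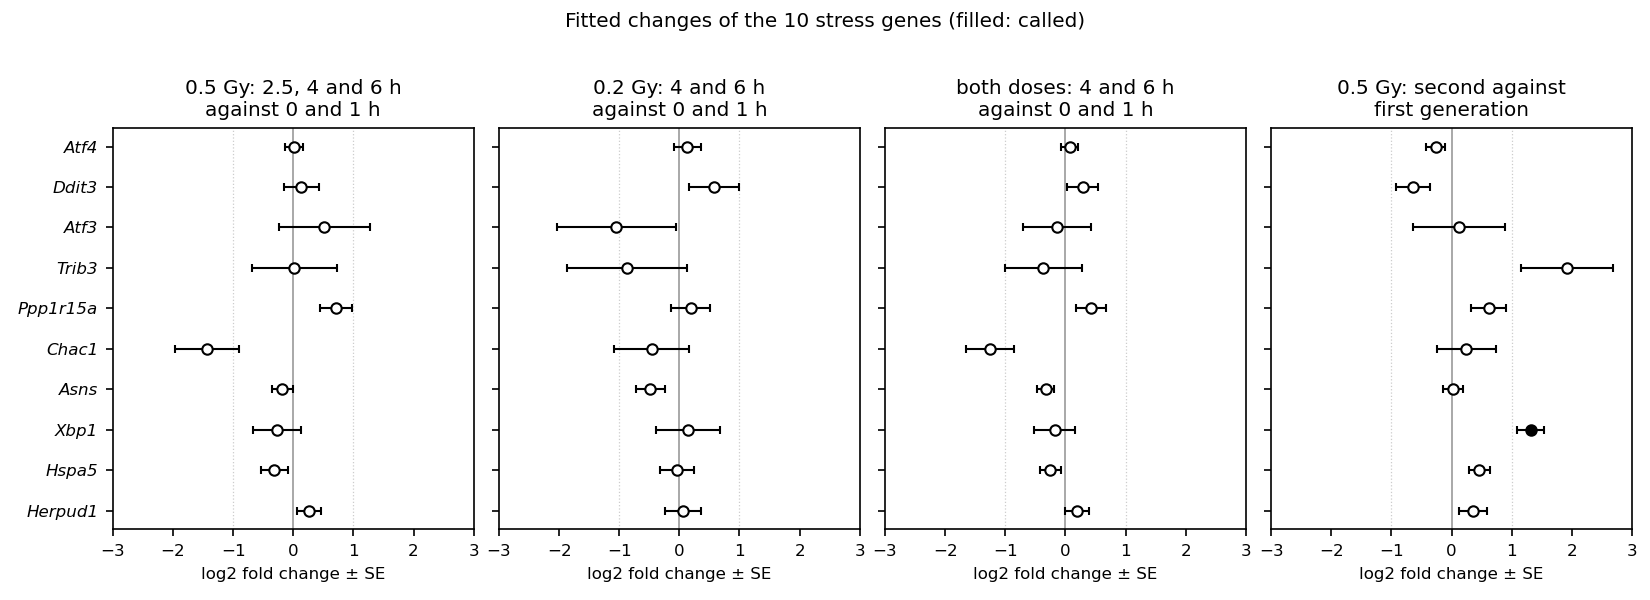
Fitted log2 fold change with its standard error for each of the 10 genes in 4 comparisons, with dotted lines at the fold threshold. Only *Xbp1* between generations is filled, at 1.32, and no gene is called late against early, where *Chac1* lies lowest with -1.44 at 0.5 Gy.

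The wider pathway was followed through 90 further genes in 6 lists. Over both doses, 1 of the 90 was called at 4 and 6 h against 0 and 1 h, *Sesn2*, against 0.0983% of all genes, and 12 had an unadjusted p under 0.05, against 7.08% of all genes. Among the 10 genes themselves 4 were higher and 6 lower, with a median log2 fold change of -0.16, against -0.03 over all genes tested. Of 31 genes for amino acid supply, tRNA charging and redox control that ATF4 and CHOP are known to raise, 21 were higher and 10 lower. Their median was 0.14, and 9 had an unadjusted p under 0.05, 6 higher and 3 lower, against 7.08% of all genes. This fit held no term for generation, and the 6 h library of 0.5 Gy has no first-generation counterpart. As labelled, 23 of these 31 genes were also higher in the second generation, with a median of 0.31. The part of generation in their late values was not tested. Of 15 ER chaperones and folding enzymes, 3 were higher and 12 lower, with a median of -0.15. The 7 sensors and eIF2α kinases split into 5 higher and 2 lower, the 9 subunits of eIF2, eIF2B and its constitutive phosphatase into 8 and 1, the 11 partner transcription factors into 4 and 7, and the 17 genes of degradation and ER entry into 11 and 6. No gene of these other 5 lists was called, and their medians lay between -0.15 and 0.11.

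*Sesn2*, which encodes a sestrin that restrains mTORC1 and is a target of p53 family factors as well as of ATF4, was the only gene of the lists called late against early. It had 2.46 and 2.99 CPM at 0 h of 0.5 Gy, 4.25 and 5.13 CPM at 1 h, 21.4 CPM at 2.5 h, 9.78 and 25.0 CPM at 4 h and 27.0 CPM at 6 h. At 0.2 Gy it went from 1.80 and 2.32 CPM at 0 and 1 h to 8.34, 14.4 and 9.11 CPM. Every library from 2.5 h on was above every library of 0 and 1 h. It rose by a log2 fold change of 2.54 (SE 0.29, adjusted p 0.00392 by edgeR) over both doses and of 2.48 (SE 0.36, adjusted p 0.0247 by edgeR) at 0.5 Gy. With the generation as a block the latter was 2.23 with an adjusted p of 0.0522, so that the call at 0.5 Gy alone was lost. The call over both doses was kept without any single library, while that at 0.5 Gy alone was lost without 6 of the 8 (adjusted p up to 0.114). Without the 0 and 1 h libraries of 0.2 Gy the adjusted p over both doses was 0.0505.

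**Figure D3:**
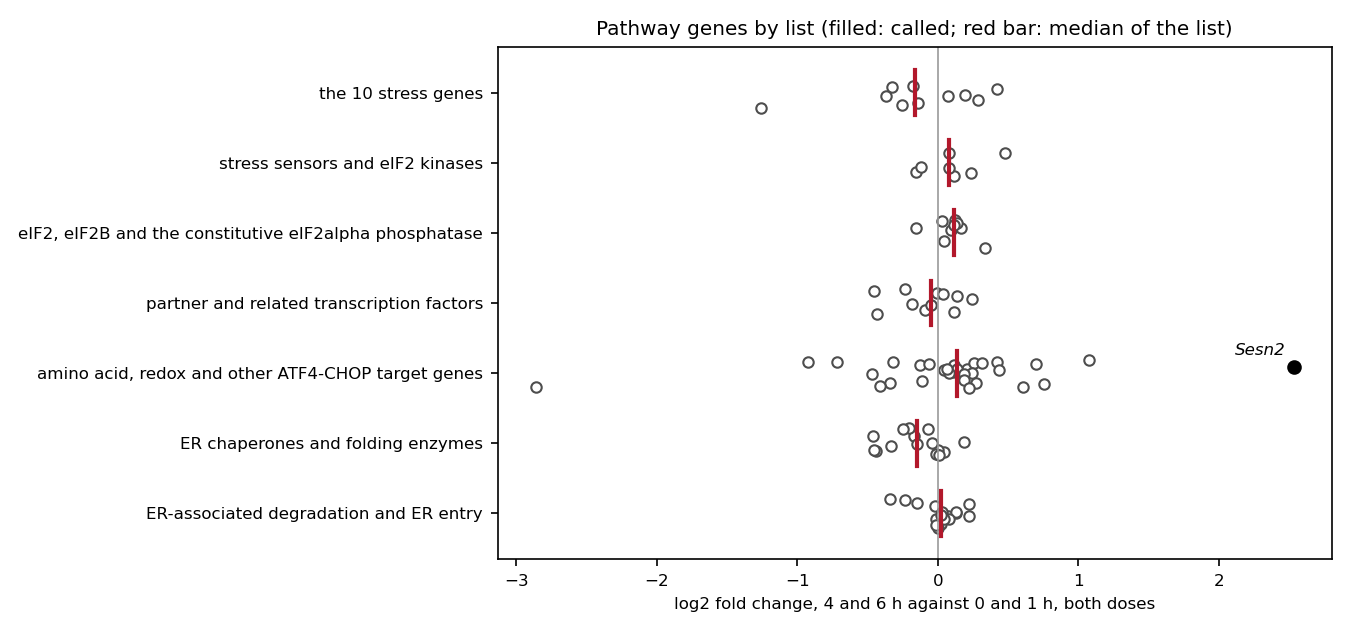
Log2 fold change of the 10 genes and of the 90 further pathway genes, 4 and 6 h against 0 and 1 h over both doses, 1 point per gene and 1 row per list, with red bars at the medians. *Sesn2* at 2.54 is the only called gene, and the medians of the lists lie between -0.16 and 0.14.

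Among the 90 genes, the smallest p after *Sesn2* in the test of any change over time was that of *Psph*, the last enzyme of serine synthesis and an ATF4 target (unadjusted p 0.00631). At 0.2 Gy it had 21.5, 17.8 and 23.3 CPM at 0, 1 and 2.5 h, against 36.4 and 37.1 CPM at 4 and 6 h. At 0.5 Gy the libraries from 2.5 h on ran from 33.2 to 49.7 CPM and the early ones from 22.5 to 35.9 CPM, and the change over both doses was 0.76 (SE 0.16, adjusted p 0.162 by edgeR). *Shmt2*, the mitochondrial serine hydroxymethyltransferase, had a log2 fold change of 0.70 (SE 0.24), *Cth*, which makes cysteine from cystathionine, of 1.08 (SE 0.44), and *Iars*, the isoleucyl-tRNA synthetase, of 0.43 (SE 0.14), with adjusted p of 0.572, 0.656 and 0.549 by edgeR. *Manf*, a chaperone-like factor secreted under ER stress, had one of -0.46 (SE 0.18), and *Crebrf*, which destabilises CREB3, one of -0.46 (SE 0.23). *Nupr1*, a stress-induced chromatin protein, *Ppp1r15b*, the constitutive partner of the eIF2α phosphatase, and *Vldlr*, a lipoprotein receptor, had values of -0.05, 0.11 and 0.19. These values set 4 and 6 h against 0 and 1 h, whereas the genes were picked for change at any time. *Nupr1* had 49.7 and 51.2 CPM at 0 h of 0.5 Gy and 98.3 and 73.7 CPM at 1 h. At 0.2 Gy it had 77.4 CPM at 0 h and 95.1 CPM at 1 h. None of these 9 genes passed after adjustment.

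The 0.2 Gy and the 0.5 Gy series were compared in 2 ways. In the difference between the doses in the change from 0 and 1 h to 4 and 6 h, none of the 10 genes was called, where 0.032% of 28162 genes were called and 8.14% had an unadjusted p under 0.05. The widest differences, 0.2 Gy minus 0.5 Gy, were -1.85 (SE 1.241) for *Atf3* and 1.30 (SE 0.80) for *Chac1*, and for *Sesn2* the difference was 0.04 (SE 0.61). Taken over all time points, 0 h included, none of the 10 was called between the 0.2 Gy and the 0.5 Gy libraries. There, 0.00351% of 28493 genes were called and 11.5% had an unadjusted p under 0.05. Since the 0 h libraries are described as taken before irradiation, this comparison gives an offset between the series and cannot be read as an effect of dose. The log2 fold change, 0.2 Gy against 0.5 Gy, was -0.51 for *Ddit3* (SE 0.25, adjusted p 0.459 by edgeR) and 0.69 for *Chac1* (SE 0.37, adjusted p 0.485 by edgeR). The SE of the change at 0.2 Gy, where each time point had 1 library, was 0.99 for *Atf3*, 1.00 for *Trib3* and 0.63 for *Chac1*, against 0.22 for *Atf4*.

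The libraries of 0.5 Gy were also compared by their generation labels. This comparison was added after the values had been seen. *Xbp1* averaged 59.9 ± 16.9 CPM (SD, n = 3) in the first generation and 144 ± 33.3 CPM (SD, n = 5) in the second, without overlap. In the fit of all 13 libraries with time point, dose and generation, its log2 fold change was 1.32 (SE 0.23, adjusted p 0.0492 by edgeR). It was the only one of the 10 called, where 0.154% of 28493 genes were called. *Trib3* averaged 0.25 ± 0.19 CPM (SD, n = 3) against 0.96 ± 0.37 CPM (SD, n = 5), with a change of 1.92 (SE 0.76, adjusted p 0.336 by edgeR). *Ddit3* went the other way, with 18.5 ± 3.01 CPM (SD, n = 3) against 12.9 ± 3.45 CPM (SD, n = 5) and a change of -0.64 (SE 0.28, adjusted p 0.400 by edgeR). These 3 of the 10 genes did not overlap between the generations, which was the case for 9.27% of all genes tested. *Hspa5* overlapped between the generations, with a log2 fold change of 0.46 (SE 0.18, adjusted p 0.321 by edgeR). The change was 0.61 (SE 0.29) for *Ppp1r15a* and 0.36 (SE 0.23) for *Herpud1*. Of the 10 genes, 8 were higher and 2 lower in the second generation, and 4 had an unadjusted p under 0.05, against 11.9% of all genes.

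Among the further pathway genes, 13 of the 15 ER chaperones and folding enzymes were higher in the second generation, with a median of 0.49 against 0.01 over all genes. Of these, 7 had an unadjusted p under 0.05, as did 11.9% of all genes, and none was called. Of the 31 genes for amino acid supply, tRNA charging and redox control, 23 were higher, and 9 had an unadjusted p under 0.05. Over all 90 further genes, 59 were higher and 31 lower, 24 had an unadjusted p under 0.05 and none was called. *Gars*, the glycyl-tRNA synthetase, passed the adjusted p with a change of 0.89 (SE 0.15, adjusted p 0.0473 by edgeR) but not the fold threshold. The call of *Xbp1* was lost without 10 of the 13 libraries, taken 1 at a time, with a change of 1.20 to 1.42. Read totals listed for the libraries elsewhere give the generations of the 1 and 4 h replicates the other way round. With these exchanged, the change of *Xbp1* was -0.42 and the call was gone, that of *Ddit3* was -0.095 and that of *Gars* was -0.18 (SE 0.31). Of the 15 chaperones and folding enzymes, 7 were then higher and 8 lower, with a median of -0.01. None had an unadjusted p under 0.05, against 4.2% of all genes. Of the 31 genes named above, 15 were then higher and 16 lower, and of the 10 stress genes 3 and 7. Granulocyte markers, 5 of 5, were highest in the second-generation 0 h library, with a sum of 446 CPM against 5.37 to 15.7 CPM in the other 12, and their part in the levels of *Xbp1*, *Hspa5*, *Ddit3* and *Asns* there was not tested. In the other second-generation libraries the sum was 6.04 to 12.5 CPM. The 10 oocyte markers had reads in all libraries and summed to 3938 to 5546 CPM, and those of granulosa cells to 1265 to 2248 CPM. Markers of ovarian stroma summed to 1840.5 to 3570 CPM and those of red blood cells to 860 to 6144 CPM. At 0.5 Gy the red blood cell sums were 6022 and 6144 CPM at 4 h and 2367 to 3529 CPM at other time points. The oocyte sums at 4 h were 4989 and 4486.5 CPM, but sums of different lists rest on different genes and cannot be compared. At 0.2 Gy the red blood cell sum was also highest at 4 h, with 4189 CPM. Its part in the time comparisons was not tested.

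Across the 13 libraries, the 10 genes did not move as 1 group. Of their 45 pairs, 20 had a Pearson r of log2 CPM above 0, with a median of -0.06. The pair most alike was *Hspa5* and *Xbp1* with r = 0.84 (Spearman's rho = 0.74, n = 13), and after subtracting the mean of each dose it was 0.85. Without the first-generation 4 h and the second-generation 0 h library of 0.5 Gy, which lie farthest from the median of *Hspa5*, r was 0.55. *Atf4* and *Ddit3* followed with r = 0.71 (rho = 0.68, n = 13), or 0.57 without the 1 h library of 0.2 Gy and the first-generation 1 h library of 0.5 Gy. *Ddit3* and *Hspa5* ran against each other with r = -0.66 (rho = -0.55, n = 13), or -0.29 without the same 2 libraries that were left out for *Hspa5* and *Xbp1*. Within 0.5 Gy, after subtracting the mean of each generation, r was 0.91 for *Hspa5* and *Xbp1*, 0.44 for *Atf4* and *Ddit3*, and -0.62 for *Ddit3* and *Hspa5*. The points share their library, its depth and its generation, so these values describe these libraries only.

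**Figure D4:**
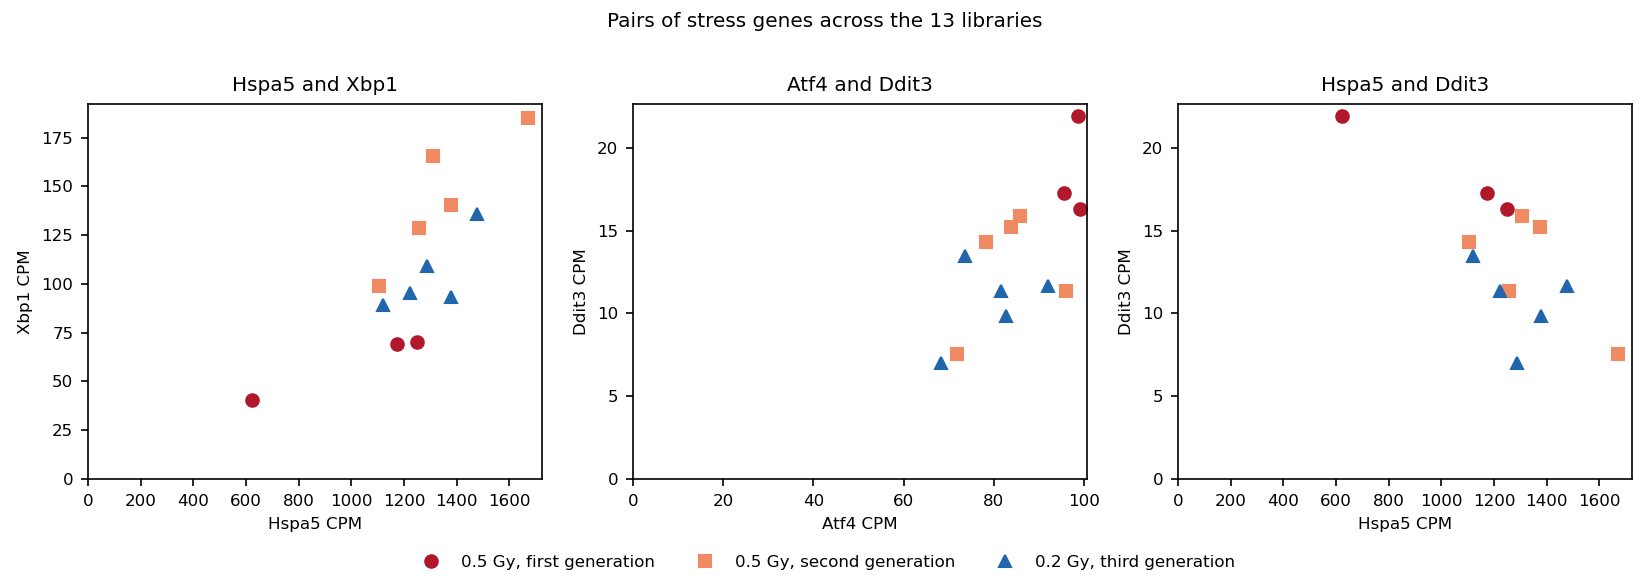
CPM of *Xbp1* against *Hspa5*, *Ddit3* against *Atf4*, and *Ddit3* against *Hspa5*, 1 point per library, with colour and shape for dose and generation. The lowest *Hspa5* point, at 624 CPM, is also the lowest of *Xbp1*, at 40.4 CPM, and the highest of *Ddit3*, at 21.9 CPM.

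The genes whose log2 CPM followed *Trib3* most closely over the 13 libraries were *Wdr36* (r = 0.89), *Exoc3* (0.87), *Dok7* (0.86), *Dag1* (0.86) and *Cyfip2* (0.86). For *Ddit3* they were *Neo1* (r = 0.95), *Smco4* (0.93), *Gm29331* (0.92), *Tapt1* (0.91) and *Serping1* (0.90). None of the 10 stress genes was among them.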

How the data were processed

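RNA of 13 oocyte libraries was sequenced by the authors as 30 bp reads, which the labels call paired-end in one place and single-end in another. The authors mapped them with salmon to Ensembl transcripts and deposited estimated counts and TPM per transcript, neither normalized between libraries nor filtered. The submitters' processing notes also name DESeq2 1.24.0 and GRCm38. The deposited results of the authors' own comparisons, with a merged table of normalized values, were not used.

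The deposited estimated counts were added up per GENCODE gene (GRCm38), which left out 402 transcripts with at most 0.495% of the reads, and were rounded. Tests used edgeR 4.0.16 in R 4.3.3 (TMM, filterByExpr, quasi-likelihood), with DESeq2 1.42.0 as an alternative, and pandas 2.3.3, numpy 2.4.6 and matplotlib 3.10.9 in Python 3.11.15. At 0.5 Gy, later time points were set against 0 h in 8 libraries, pooled time points of 0.5 Gy in the same 8, the doses in 11 libraries without 2.5 h, and both doses in 13 with time point and dose. The model across genes lets single libraries borrow their spread from the duplicates. The fits were run on simulated data that held no generation differences and the same scatter for every gene. That run checks the code and cannot show what the fits detect in these libraries. Correlations used log2 CPM with a prior count of 2.

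The members and lists were chosen with earlier results of these data known. The 10 genes are always named. Other pathway genes are named if called, or if among the 10 with the smallest p over time, apart from *Gars* and the generation values, which were chosen after being seen. For *Trib3*, with the widest range, and *Ddit3*, the 5 genes of highest r are named, and *Cdkn1a* and *Mdm2* serve as the check of irradiation. Alternatives were other size factors, no filter, DESeq2, no fold threshold, a replicate block and fits without 1 library.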

Additional observations from a re-analysis of the deposited data

Results flagged for a closer look

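Of 22 groups examined for a sample far from the others, where chance flags about 1 in 20, 2 were picked out, both by the second-generation 0 h library of 0.5 Gy. *Ddit3* had 7.53 CPM there, against 15.9 to 17.3 CPM in the other 3 libraries of 0 and 1 h of 0.5 Gy, a gap of 0.858 of the range. *Asns* had 78.7 CPM there, against 64.5 to 66.3 CPM, a gap of 0.874 of the range. This library also had the fewest estimated reads, 15709549, and the highest sum of granulocyte markers, 446 CPM, and the part of either in these values was not tested.

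For *Trib3*, the 4 and 6 h libraries lay on opposite sides of the mean log2 CPM of the 0 and 1 h libraries at the 2 doses, all above it at 0.5 Gy and all below it at 0.2 Gy. This rested on the log scale: in CPM, both 4 h libraries of 0.5 Gy, with 0.47 and 0.49, lay under the mean of its 0 and 1 h libraries, 0.69. The difference in log2 fold change, 0.2 Gy minus 0.5 Gy, was -0.76 (SE 1.26, adjusted p 0.902 by edgeR) and did not pass the test.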

How the results depend on the processing

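None of the 10 genes was called in any planned comparison under other size factors, no filter, DESeq2, no fold threshold, either replicate block or without any 1 library. The generation comparison changed: 0 of the 10 were called with size factors of DESeq2, with the generations of 1 and 4 h exchanged, or without the 0 and 1 h libraries of 0.2 Gy, and 0 to 1 without 1 library. With the exchange, the change was -0.42 for *Xbp1*, -0.27 for *Trib3*, -0.16 for *Hspa5*, -0.27 for *Ppp1r15a*, -0.35 for *Herpud1* and -0.095 for *Ddit3*. Without the 0 and 1 h libraries of 0.2 Gy, *Atf3* over both doses was 0.21. These alternatives were chosen after seeing the data, and the cause was not tested. Without 1 library, signs at 0.5 Gy turned for *Atf3* (-0.016 to 1.00), *Atf4* (-0.066 to 0.076), *Ddit3* (-0.068 to 0.27), *Xbp1* (-0.46 to 0.008) and *Trib3* (-0.33 to 0.85). Over both doses they turned for *Atf3* (-0.50 to 0.22), *Atf4* (-0.040 to 0.20), *Xbp1* (-0.42 to 0.063) and *Trib3* (-1.12 to 0.27), and so did the dose difference of *Sesn2* (-0.37 to 0.34). Others kept their sign over both doses but moved by over 1.5 times, *Ddit3* (0.14 to 0.42), *Hspa5* (-0.39 to -0.11), *Herpud1* (0.11 to 0.37) and *Ppp1r15a* (0.19 to 0.57), as did the dose differences of *Atf3* (-2.36 to -0.93) and *Chac1* (0.85 to 1.55). The replicate differences of the time points correlated at 0.130, 0.0784 and 0.109, and the main fits did not treat the numbers as pairing. Between the generations as labelled, 11.9% of all genes had an unadjusted p under 0.05. The low correlations therefore do not show that the generation can be left out. With the replicate block, *Sesn2* at 0.5 Gy was 2.23 (adjusted p 0.0522 by edgeR) and *Xbp1* -0.60 (adjusted p 0.267 by edgeR). Over all genes, edgeR called 29 late against early at 0.5 Gy, 18 with the block, 58 without a filter and 251 by DESeq2, and over both doses 28, 24, 64 and 179. In all comparisons together, where edgeR called 0 to 44 genes, 22 to 162 were called without a filter and 30 to 349 by DESeq2. Reads of 3 to 83 per library limit *Trib3*, *Atf3* and *Chac1*.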
